A study of Phyllostachys nigra with 21 samples.

Results

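Dehydrin, late embryogenesis abundant (LEA), and cold-regulated COR413 genes were followed in culms of black bamboo (Phyllostachys nigra, Pn) held in the cold. A gene was a member if its description contained dehydrin, late embryogenesis abundant, cold-regulated, cold acclimation, low temperature-induced, cold shock, or cold-induced, and descriptions of dehydration-responsive element-binding (DREB) factors were left out. The rule found 20 of 42460 genes, of which 6 were dehydrins, 11 were LEA genes, and 3 were COR413 genes. No member carried a cold shock or low temperature-induced description.

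The RNA came from young culms of potted greenhouse plants, and the study asked how cold affects the blackening of the culm. The 7 groups had 3 libraries each. CK culms were taken before treatment, LT1d, LT15d, and LT25d culms after 1, 15, and 25 days at 4 °C, and RT1d, RT15d, and RT25d culms after 1, 15, and 25 days at 25 °C, the control temperature. All groups were wild-type Pn grown from rhizomes of field plants, and the study used several shoots per treatment as biological replicates. No source used here says which shoots the 3 libraries of a group came from. CK differed from each treated group in age and growth chamber as well as in treatment, and these cannot be told apart. Plants at 4 °C and at 25 °C were kept in growth chambers at the same time. Temperature and chamber therefore cannot be told apart between LT and RT either. Bulk culm RNA was measured, so a change in the share of a cell type and a change in RNA per cell cannot be told apart.

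LEA proteins are mostly small and very hydrophilic, and they are named for their accumulation late in seed development, when the embryo dries. Dehydrins are the LEA family with lysine-rich segments that bind membranes and other surfaces, and in cereals several of them accumulate during cold acclimation. COR413 proteins are membrane proteins of the plasma membrane and of the chloroplast inner envelope. In Arabidopsis, many such genes are switched on in the cold by CBF/DREB1 factors downstream of ICE1, and by abscisic acid (ABA).

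Total counts per library ranged from 33957497 to 50338658. A gene was tested if it reached 1 FPKM (fragments scaled by transcript length and library depth) in at least 3 libraries, which 29913 genes and 16 of the 20 members did. Calls of higher or lower came from edgeR's quasi-likelihood test and needed a 2-fold change and an adjusted p (Benjamini-Hochberg) no larger than 0.05. The libraries of LT15d, LT25d, and RT15d differed within their group by little more than counting noise, at an assumed 4 counts per read pair. The variance ratio was then 1.43 to 1.75, against 4.55 to 80.4 in the other groups. On the counts as deposited, without that assumption, it was 5.72 to 6.99, against 18.2 to 322. The small SDs in LT15d, LT25d, and RT15d may therefore be technical. The 3 members PH02Gene07646, PH02Gene10877, and PH02Gene42079 passed the filter only with the help of LT libraries. The 4 untested members were PH02Gene06539 (Rab25-like dehydrin), PH02Gene14270 and PH02Gene40338 (LEA), and PH02Gene43446 (a COR413 plasma membrane protein), each under 1 FPKM in every library.

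The summed level of the members was highest after 15 days at 4 °C. It was 4490 ± 35.0 FPKM in LT15d against 335 ± 9.46 in RT15d (SD, n = 3). After 25 days it was 1409 ± 20.9 in LT25d against 154 ± 5.98 in RT25d, and after 1 day 1028 ± 243 in LT1d against 447 ± 88.5 in RT1d. Before treatment it was already 1032 ± 504 FPKM, with 546, 1552, and 997 in the 3 CK libraries. The LT and RT libraries did not overlap on any day, and LT1d was within the range of CK. As a share of all FPKM, the 20 genes made up 0.889% in LT15d, 0.277% in LT25d, 0.208% in CK, and 0.0313% in RT25d.

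**Figure D1:**
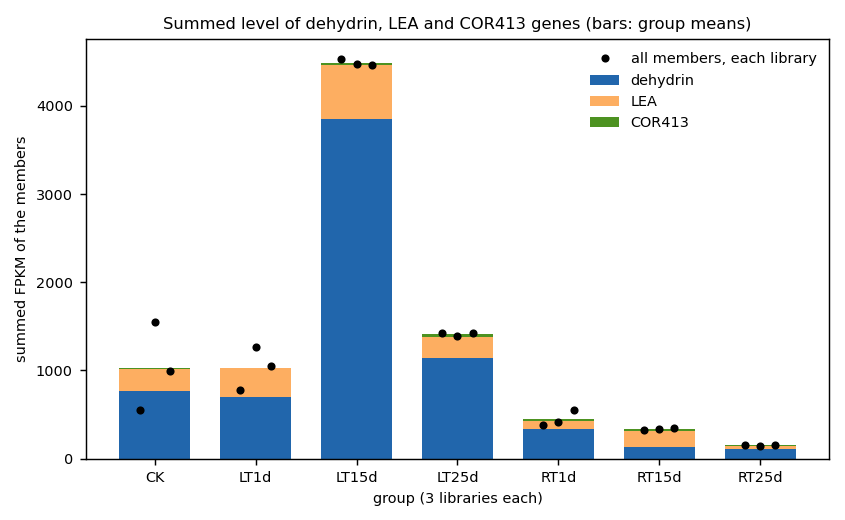
Summed FPKM of the 20 members by group. Stacked bars are group means of the dehydrins (blue), the LEA genes (orange), and the COR413 genes (green), and points are the totals of the 3 libraries of each group. The LT15d libraries sit between 4460 and 4529 FPKM, above every other library, and the RT25d libraries between 147 and 159 are the lowest.

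The dehydrins carried most of this RNA. Their sum was 3852 ± 34.3 FPKM in LT15d and 127.5 ± 7.60 in RT15d, whereas the 11 LEA genes summed to 615 ± 8.54 and 187 ± 3.67 FPKM. At 25 °C on day 15 the LEA sum was therefore above the dehydrin sum, and in the other groups the dehydrin sum was the larger one. A single gene, PH02Gene13412, gave 67.9% of the member FPKM in CK, 43.7% in LT15d, and 23.3% in RT15d.

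Members called higher at 4 °C than at 25 °C were few on day 1 and most of those tested on days 15 and 25. On day 1, 4 members were higher and 2 lower in LT than in RT, where 20.8% of all tested genes were higher and 23.4% lower. On day 15, 12 were higher and 0 lower, against 19.3% and 20.8% of all genes. On day 25, 14 were higher and 0 lower, against 11.3% and 13.2%. No member was lower on days 15 and 25 at an unadjusted p under 0.05 in edgeR, nor called lower with DESeq2 or limma. The 3 members that passed the filter only with LT libraries were called higher on days 15 and 25, as their way into the test favoured. Without them, 4 of 13 members were higher and 2 lower on day 1, 9 were higher on day 15, and 11 on day 25. The day 1 shares were near those of all genes. The comparisons with CK, given below, set both temperatures beside the level before treatment. CK also differed in age and growth chamber, so these comparisons do not separate a rise in the cold from a fall at 25 °C.

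The median log2 fold change of the 16 tested members was 0.59 on day 1, 4.07 on day 15, and 7.56 on day 25, beside -0.06, -0.02, and -0.02 over all tested genes. With the 3 members that had no counts in RT25d set at their lower bound, the day 25 median was 3.77. Called higher on both day 15 and day 25 were 12 members, against 6.03% of all genes, and on all 3 days 3 members (PH02Gene13412, PH02Gene27068, and PH02Gene32270), against 2.8%. Scaling to library size alone moved the median of all genes to -0.53 on day 1 and -0.37 on day 15, and the calls over all genes on day 1 from 6224 higher and 7008 lower to 4238 and 10257. The log2 fold changes and folds that follow are relative to the main scaling. FPKM values, their group means, and counts of members without overlap use FPKM as deposited, without that scaling. FPKM differences can therefore depart from the tested fold changes.

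**Figure D2:**
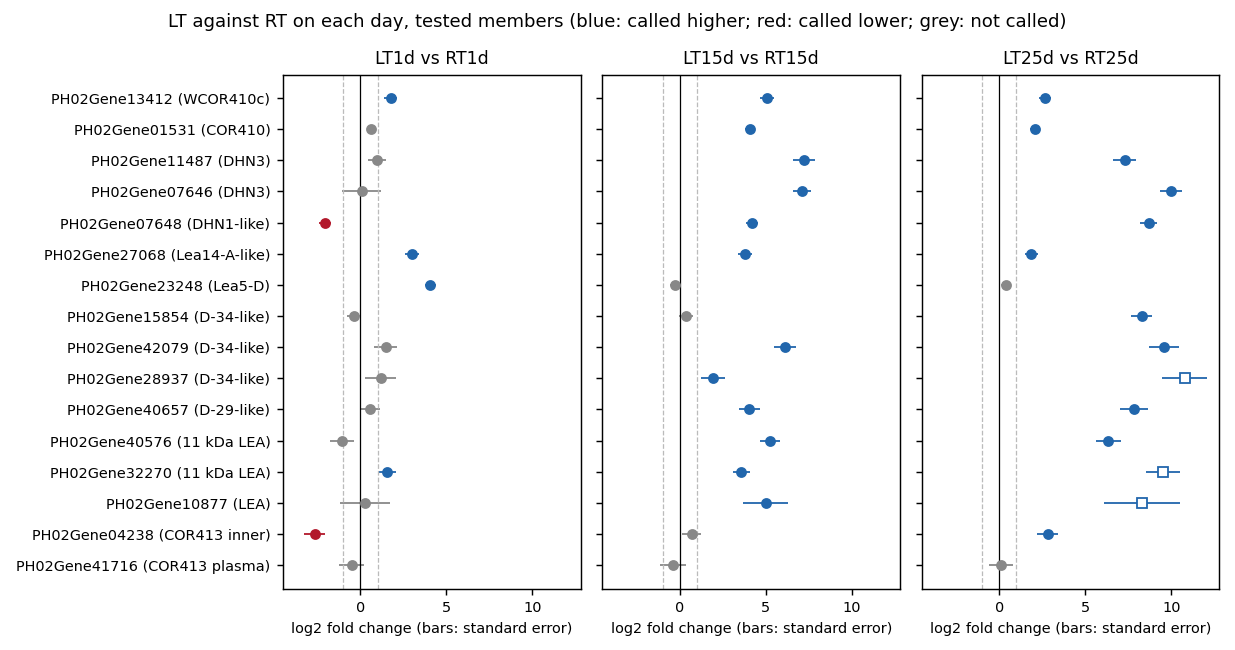
Log2 fold change of LT against RT on each day for the 16 tested members, with standard errors from edgeR. Blue points are members called higher, red points members called lower, and grey points members not called, dashed lines mark a 2-fold change, and open squares on day 25 mark members without counts in RT25d, whose fold depends on the prior count. Red points appear only on day 1, and 14 of the 16 points on day 25 are blue.

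PH02Gene13412, described as the cold acclimation protein WCOR410c, was the most abundant member. WCOR410 is a wheat dehydrin found near the plasma membrane of cold-acclimated cells, so the gene was placed with the dehydrins. It lies on scaffold 17 of the moso bamboo (P. edulis) assembly, from 24624144 to 24625846 on the plus strand. Its FPKM was 1973, 1952, and 1967 in the LT15d libraries, against 72.6, 80.1, and 81.7 in RT15d. It stood at rank 5 of all genes by mean FPKM in LT15d and at rank 1014 in RT15d.

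The gene was also abundant before treatment, with 332, 1070, and 700 FPKM in CK, which put it at rank 6 there. On day 1 it read 395, 859, and 648 FPKM at 4 °C and 222, 248, and 347 at 25 °C. LT1d thus lay within the range of CK, and the day 1 difference from RT1d (log2 fold change 1.75, SE 0.35, adjusted p = 0.000301) went with lower values at 25 °C: against CK, LT1d changed by -0.01 (adjusted p = 0.989) and RT1d by -1.76 (adjusted p = 0.000711). The LT effect grew to 5.05 (SE 0.41, adjusted p = 1.84e-08) on day 15. On day 25 it was 2.65 (SE 0.36, adjusted p = 1.7e-05), with 543, 536, and 545 FPKM in LT25d and 82.1, 84.1, and 100.5 in RT25d.

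PH02Gene01531, described as COR410, is a dehydrin of the same name series on scaffold 3 (80523852 to 80525587). Its FPKM differed little on day 1, and the libraries overlapped. It read 43.1, 71.1, and 59.5 FPKM in LT1d and 50.3, 55.2, and 57.7 in RT1d. On day 15 the values were 397, 382, and 380 FPKM at 4 °C and 29.5, 30.8, and 28.3 at 25 °C. The log2 fold change in scaled counts was 0.62 on day 1 (SE 0.25, adjusted p = 0.0394), under 2-fold and so not called. The values were 4.10 on day 15 (SE 0.29, adjusted p = 3.73e-09) and 2.06 on day 25 (SE 0.26, adjusted p = 7.83e-06). Its LT25d level, 74.1 ± 2.37 FPKM, was close to its CK level of 56.5 ± 25.8 (log2 fold change 0.09, adjusted p = 0.778), whereas RT25d had fallen to 18.3 ± 0.452.

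PH02Gene11487, one of the pair of genes described as DHN3, a dehydrin first named in barley, was low before treatment and one of the most abundant RNAs of the culm after 15 days at 4 °C. It lies on scaffold 2 (12133341 to 12133861). In CK it read 4.48, 4.82, and 5.34 FPKM, and in LT1d 7.46, 6.60, and 4.37. In LT15d it read 1276, 1247, and 1244 FPKM, rank 9 of all genes, against 9.95, 12.5, and 10.8 in RT15d. In LT25d it read 263, 256, and 251 FPKM, against 2.29, 0, and 2.66 in RT25d. The log2 fold change was 0.96 on day 1 (adjusted p = 0.125), 7.21 on day 15 (SE 0.64, adjusted p = 5.17e-08), and 7.28 on day 25 (SE 0.66, adjusted p = 1.94e-07).

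PH02Gene07646, the other DHN3 gene (scaffold 13, 30469947 to 30470837), had no counts in any CK library. It stayed at or under 0.166 FPKM on day 1 at both temperatures. In LT15d it read 143, 149, and 142 FPKM and in LT25d 227, 219, and 226, so it was one of the few members higher in LT25d than in LT15d. At 25 °C it read 1.31, 1.81, and 0.951 FPKM on day 15 and 0.326, 0, and 0.318 on day 25. Against a floor of 12 counts per library, LT15d was at least 572-fold and LT25d at least 675-fold higher than CK, and RT15d at least 4.15-fold higher, a bound that covers counting error only. LT exceeded RT by a log2 fold change of 7.10 on day 15 (SE 0.54, adjusted p = 2.95e-08) and 9.99 on day 25 (SE 0.64, adjusted p = 1.29e-08).

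PH02Gene07648, described as DHN1-like, lies on scaffold 13 at 30367302 to 30368502, next to PH02Gene07646 with a gap of 101.4 kb and 0 genes listed between them. The neighbours differed on day 1. PH02Gene07648 read 1.63, 1.60, and 1.56 FPKM in LT1d and 7.74, 7.24, and 13.6 in RT1d, against at most 0.0578 in CK, so that it was above CK at both temperatures and lower in the cold than at 25 °C (log2 fold change -2.04, SE 0.34, adjusted p = 5.14e-05). On day 15 the order had turned, with 101.9, 104.2, and 97.4 FPKM in LT15d and 5.71, 8.45, and 7.84 in RT15d (log2 fold change 4.18, SE 0.36, adjusted p = 3.36e-08). On day 25 it read 49.4, 46.9, and 51.9 FPKM at 4 °C and 0.205, 0, and 0.134 at 25 °C (log2 fold change 8.69, SE 0.48, adjusted p = 7.29e-10).

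The untested dehydrin, PH02Gene06539 (Rab25-like), was at 0 in all CK, LT1d, RT1d, and RT25d libraries. It read 0.582, 0.285, and 0.441 FPKM in LT15d, its highest group, and 0, 0.123, and 0 in RT15d. No source used here says how reads that fit several genes were counted, so the split of reads between the DHN3 genes is uncertain.

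**Figure D3:**
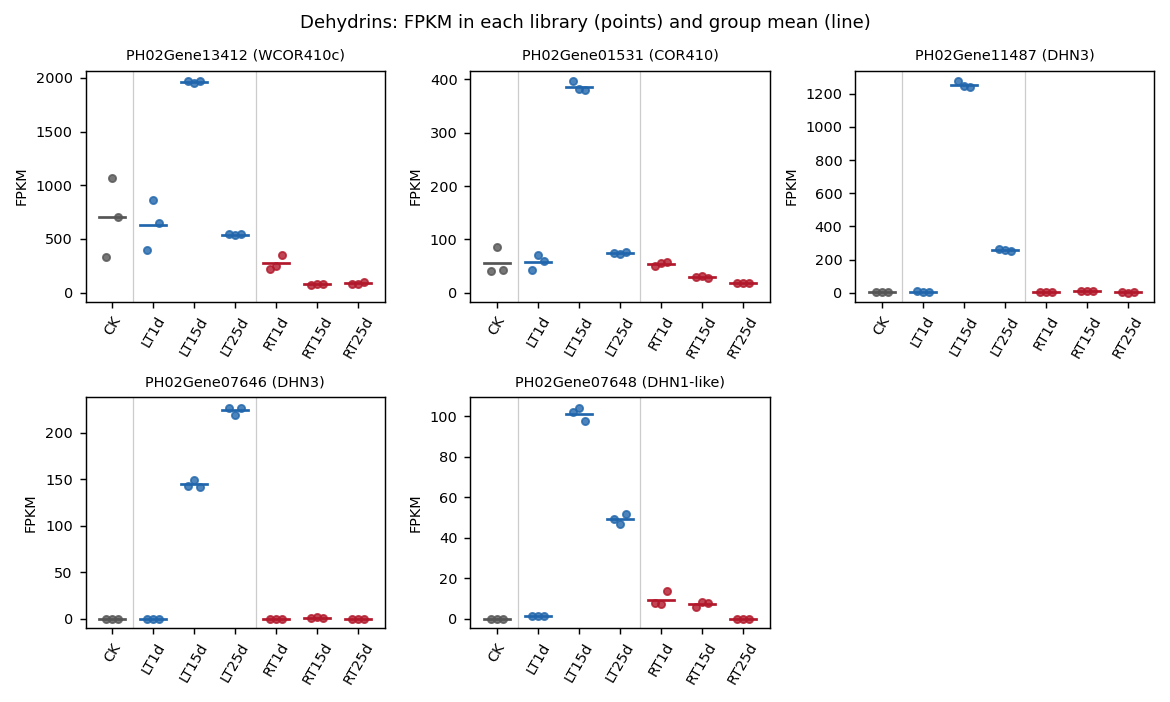
FPKM of the 5 tested dehydrins in each library (points, 3 per group) with the group mean (line), on a linear axis that differs between panels. Grey marks CK, blue 4 °C, and red 25 °C. LT15d is the highest group for every dehydrin except PH02Gene07646, whose LT25d libraries between 219 and 227 FPKM lie above its LT15d libraries.

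Among the 9 tested LEA genes, 3 were higher in LT on day 1, 7 on day 15, and 8 on day 25, beside 20.8%, 19.3%, and 11.3% of all tested genes. None was lower in edgeR, beside 23.4%, 20.8%, and 13.2%. The D-29, D-34, Lea5, and Lea14 types are named after LEA genes of cotton. The 11 kDa LEA genes are named for the size of a small LEA protein.

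PH02Gene40576, an 11 kDa LEA gene (scaffold 13, 77936824 to 77937364), was the LEA gene with the highest level in LT15d. It read 176, 185, and 175 FPKM there and 6.25, 6.55, and 5.80 in RT15d. In LT25d it read 21.3, 21.1, and 25.7 FPKM, and in RT25d 0.380, 0, and 0.411. It was at or under 0.470 FPKM in CK, and its day 1 libraries overlapped, with 1.24, 0.308, and 0 FPKM in LT1d and 1.09, 1.44, and 2.54 in RT1d. The log2 fold change was -1.06 on day 1 (adjusted p = 0.188), 5.24 on day 15 (SE 0.59, adjusted p = 8.76e-07), and 6.34 on day 25 (SE 0.72, adjusted p = 2.29e-06). Without LT1d replicate 1, the day 1 value was -2.90 and passed the test (adjusted p = 0.0124).

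PH02Gene40657, a D-29-like gene (scaffold 15, 70848515 to 70849908), had a like course. It read 132, 129, and 130 FPKM in LT15d against 10.1, 10.8, and 10.1 in RT15d, and 20.7, 15.9, and 21.2 in LT25d against 0.0905, 0, and 0.144 in RT25d. On day 1 the libraries overlapped, at 1.63, 5.10, and 2.79 FPKM in LT1d and 2.16, 3.10, and 4.02 in RT1d. The log2 fold change was 0.56 on day 1 (not called), 4.05 on day 15 (SE 0.59, adjusted p = 1.43e-05), and 7.84 on day 25 (SE 0.81, adjusted p = 8.53e-07).

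PH02Gene32270, the other 11 kDa LEA gene (scaffold 19, 15247565 to 15248246), read 20.5, 20.1, and 20.2 FPKM in LT15d against 1.84, 1.998, and 2.76 in RT15d (log2 fold change 3.58, SE 0.50, adjusted p = 1.67e-05). In LT25d it read 4.30, 4.08, and 5.32 FPKM, and no RT25d library had a count, which puts LT25d at least 8.79-fold higher. It was called higher on day 1 (log2 fold change 1.56, SE 0.50, adjusted p = 0.0121), although its libraries overlapped, with 1.58, 2.47, and 2.94 FPKM in LT1d and 0.605, 1.92, and 0.777 in RT1d. The day 1 call was lost without RT1d replicate 1 (1.27, adjusted p = 0.0551), with scaling to library size (1.08, adjusted p = 0.0527), with limma on log2(FPKM + 1) (0.70), and with near-identical libraries summed (adjusted p = 0.0668).

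The 3 D-34-like genes followed different courses. PH02Gene42079 (scaffold 12, 48225575 to 48226516) was nearly silent outside the longer cold treatments, with at most 1.20 FPKM in every CK, day 1, and RT library. It read 36.7, 36.0, and 33.7 FPKM in LT15d and 29.7, 28.9, and 28.5 in LT25d. The log2 fold change was 1.46 on day 1 (adjusted p = 0.0622), 6.13 on day 15 (SE 0.65, adjusted p = 4.11e-07), and 9.57 on day 25 (SE 0.86, adjusted p = 1.84e-07), the last against 5, 0, and 0 counts in RT25d. The day 1 value passed the test without LT1d replicate 1 (1.81, adjusted p = 0.0318).

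PH02Gene15854 (scaffold 6, 59648058 to 59649274) was as abundant at 25 °C as at 4 °C on day 15, with 129, 127, and 135 FPKM in RT15d and 125, 127, and 126 in LT15d (log2 fold change 0.34, SE 0.40, adjusted p = 0.466). On day 1 it read 18.8, 27.2, and 22.8 FPKM in LT1d and 49.8, 41.6, and 37.3 in RT1d, without overlap but not called (-0.37, SE 0.40). On day 25 the temperatures separated, with 64.4, 64.6, and 66.3 FPKM in LT25d and 0.494, 0, and 0.116 in RT25d. The log2 fold change was then 8.28 (SE 0.60, adjusted p = 1.31e-08), and against CK, RT25d fell by 7.48 (adjusted p = 3.11e-08). LT25d was at 65.1 ± 1.04 FPKM, below its own level on day 15. It was above every CK library (20.3, 46.6, and 24.1 FPKM) but not called against CK (0.80, adjusted p = 0.104).

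PH02Gene28937 (scaffold 8, 42704257 to 42705743) was a low gene, with 3.04, 3.96, and 3.36 FPKM in LT15d and 1.39, 1.03, and 1.18 in RT15d. The day 15 call (log2 fold change 1.92, SE 0.68, adjusted p = 0.0225) was lost without LT15d replicate 2 (1.81), without RT15d replicate 2 (1.83), and without RT15d replicate 3 (1.91). In LT25d it read 4.41, 5.99, and 4.73 FPKM, and with no count in RT25d it was at least 21.1-fold higher. PH02Gene10877 (scaffold 14, 90580903 to 90581854), described only as late embryogenesis abundant, read 6.11, 8.47, and 9.55 FPKM in LT15d against 0.569, 0.0904, and 0.257 in RT15d (log2 fold change 4.99, SE 1.32, adjusted p = 0.00378). In LT25d it read 0.995, 2.07, and 1.65 FPKM, at least 3.76-fold above RT25d, where it had no counts.

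The last pair of LEA genes were highest on day 1. PH02Gene23248, described as Lea5-D (scaffold 16, 89291797 to 89294034), belongs to a group that is known in Arabidopsis from SAG21, a mitochondrial LEA protein. It read 128, 122, and 126 FPKM in LT1d against 9.64, 8.56, and 14.0 in RT1d, a log2 fold change of 4.07 (SE 0.33, adjusted p = 1.28e-08) and the largest rise among the members on that day. CK lay in between, at 48.7, 58.1, and 54.2 FPKM, so that LT1d rose (1.39, adjusted p = 0.000636) and RT1d fell by 2.67 (adjusted p = 3.56e-06) against it. Later it was not called: LT15d read 17.5, 17.1, and 16.3 FPKM and RT15d 25.0, 28.4, and 27.2 (log2 fold change -0.27), with all LT15d libraries below all RT15d libraries, and LT25d read 20.5, 20.7, and 21.7 against 24.8, 17.4, and 7.18 in RT25d (0.38). Its level in LT15d and LT25d was below CK, by -1.53 and -1.63.

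PH02Gene27068, described as Lea14-A-like (scaffold 7, 50364028 to 50366067), was higher at 4 °C on all 3 days without overlap. It read 175, 162, and 174 FPKM in LT1d against 16.4, 22.6, and 52.2 in RT1d. On day 15 the values were 97.8, 97.1, and 93.8 against 10.1, 8.71, and 8.93, and on day 25 73.5, 69.8, and 67.5 against 22.0, 20.5, and 17.3. The log2 fold change was 2.999 (SE 0.39, adjusted p = 3e-06), 3.78 (SE 0.40, adjusted p = 4.39e-07), and 1.86 (SE 0.37, adjusted p = 0.000605). CK was high and uneven, at 92.4, 251, and 136 FPKM. Against CK the gene did not rise in the cold on any day, and it was lower in LT25d by -1.49 and in RT1d, RT15d, and RT25d by -2.78, -4.42, and -3.35.

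The untested LEA genes PH02Gene14270 and PH02Gene40338 had at most 0.183 and 0.1001 FPKM in any library.

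**Figure D4:**
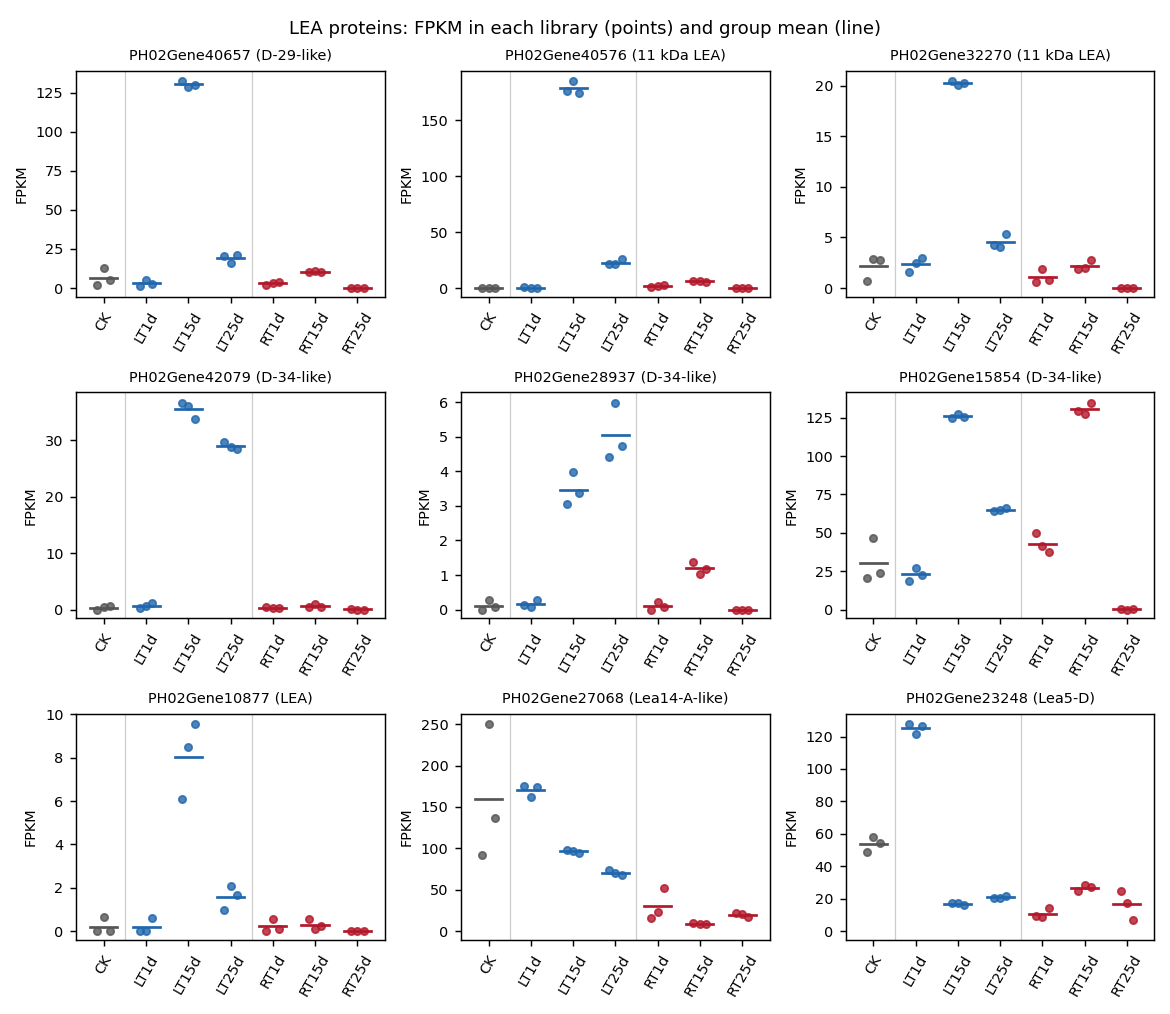
FPKM of the 9 tested LEA genes in each library (points, 3 per group) with the group mean (line), on a linear axis that differs between panels. Grey marks CK, blue 4 °C, and red 25 °C. In the top row LT15d stands above all other groups, PH02Gene15854 is as high in RT15d as in LT15d, and PH02Gene23248 and PH02Gene27068 in the bottom row are highest among treated groups in LT1d.

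Of the COR413 genes, 1 was called on days 1 and 25 and the others on no day or not tested. PH02Gene04238, described as the chloroplast inner membrane protein COR413 (scaffold 9, 61912594 to 61915275), was lower in the cold on day 1, with 1.21, 1.55, and 0.711 FPKM in LT1d and 12.3, 12.4, and 7.31 in RT1d (log2 fold change -2.66, SE 0.62, adjusted p = 0.00112). On day 15 it read 21.03, 22.6, and 21.5 FPKM in LT15d and 18.3, 16.7, and 17.9 in RT15d, without overlap but not called (0.70, adjusted p = 0.275). On day 25 it was higher in the cold, with 19.8, 17.5, and 22.0 FPKM against 1.18, 2.71, and 4.79 (2.81, SE 0.59, adjusted p = 0.000925). CK replicate 1 had 2.35 FPKM, and the others 18.7 and 23.6.

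Like PH02Gene04238, the tested nuclear genes of the chloroplast light harvesting complex were lower in the cold on day 1. All 10 tested genes described as chlorophyll a-b binding proteins were lower in LT1d, and the 14 such genes summed to between 5.36 and 12.98 FPKM in LT1d and between 388 and 566 in RT1d. Of all tested genes, 23.4% were lower on day 1. On day 15, 1 light harvesting gene was higher and 6 were lower, against 19.3% and 20.8% of all tested genes. PH02Gene04238 was not called on that day, with all LT15d libraries above all RT15d libraries. On day 25, 4 light harvesting genes were higher and 0 lower, against 11.3% and 13.2%. The part of green tissue in the result for PH02Gene04238 was not tested.

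PH02Gene41716, described as COR413 plasma membrane protein 2 (scaffold 22, 22849793 to 22850354), was called on no day. It read 1.53, 1.71, and 2.96 FPKM in LT1d against 3.69, 6.52, and 2.74 in RT1d, and 4.08, 4.32, and 5.18 in LT25d against 2.38, 4.38, and 6.49 in RT25d. The log2 fold changes were -0.51, -0.38, and 0.08 with SEs of 0.73, 0.75, and 0.71, so the spread between libraries was too wide to show a 2-fold change. PH02Gene43446, with the same description, had at most 0.602 FPKM in any library.

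Against culms before treatment, most tested members were higher after 15 days at 4 °C and most were lower after 25 days at 25 °C. LT15d had 12 members higher and 1 lower than CK, where 16.2% and 22.4% of all genes were higher and lower. RT25d had 1 higher and 11 lower, against 11.0% and 15.3%. The 1 higher in RT25d was PH02Gene07646, with 15, 0, and 15 counts in RT25d and none in CK, too few for a fold. Among the 11 lower, PH02Gene28937 (0, 13, and 5 counts in CK) and PH02Gene42079 (0, 19, and 25) also rest on few counts. The CK and RT25d libraries of both, and of PH02Gene04238, overlapped. All comparisons with CK share the CK libraries, and the CK libraries of the most abundant members spread widely.

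On day 1, LT1d had 2 members higher and 1 lower than CK (14.2% and 19.8% of all genes), and RT1d had 2 higher and 5 lower (9.19% and 13.6%). On day 15 at 25 °C, 5 were higher and 4 lower (10.4% and 15.3%), and on day 25 at 4 °C, 6 were higher and 2 lower (11.3% and 17.0%). The 6 in LT25d were PH02Gene07646, PH02Gene07648, PH02Gene11487, PH02Gene28937, PH02Gene40576, and PH02Gene42079, all of which were under 6 FPKM in every CK library. The abundant dehydrins PH02Gene13412 and PH02Gene01531 were not among them, since LT25d lay within or near the CK range.

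The level at 4 °C was lower on day 25 than on day 15 for most members. Group means were highest in LT15d for 10 of the 16 tested members (11.8% of all tested genes), in LT25d for 3 (17.0%), in LT1d for 2 (13.3%), and in RT15d for 1 (15.3%), and for none in CK, RT1d, and RT25d (8.32%, 17.1%, and 17.2%). In FPKM, all LT25d libraries lay below all LT15d libraries for 11 members, against 26.3% of all genes, and above them for 4, against 52.4%. Of these 4, PH02Gene23248 was 1.07-fold higher in LT15d in scaled counts. In scaled counts, LT15d exceeded LT25d by 10.3-fold for PH02Gene40576, 8.89-fold for PH02Gene40657, 6.85-fold for PH02Gene01531, 6.44-fold for PH02Gene11487, and 4.77-fold for PH02Gene13412. This decline was described from levels and not tested.

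Many members were near 0 after 25 days at 25 °C. In RT25d, 9 of the 16 tested members were under 1 FPKM in all libraries, and 3 were in LT1d. Of those in RT25d, PH02Gene07646, PH02Gene07648, PH02Gene10877, PH02Gene28937, PH02Gene40576, and PH02Gene42079 were already under 1 FPKM in every CK library. The share of all tested genes at such levels was not counted. RT25d replicate 2 had no counts for 10 members, and for 6 of these (PH02Gene07646, PH02Gene07648, PH02Gene11487, PH02Gene15854, PH02Gene40576, and PH02Gene40657) replicates 1 and 3 had between 7 and 60 counts. Those counts were 0.0559% to 0.305% of the mean count of the same genes in LT15d, and their source was not tested. Log2 fold changes on day 25 above about 6 rest on such counts and are better read as large than as exact.

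The change of the LT effect between days was tested directly. From day 1 to day 15 it grew in 10 members and shrank in 1, against 17.1% and 16.1% of all genes. From day 15 to day 25 it grew in 8 and shrank in 3 (15.0% and 14.7%), and from day 1 to day 25 it grew in 12 and shrank in 1 (22.8% and 22.1%). The member in which it shrank after day 1 was PH02Gene23248 (-4.33 by day 15, SE 0.43, adjusted p = 5.81e-07). The 3 in which it shrank from day 15 to day 25 were PH02Gene01531 (-2.04), PH02Gene13412 (-2.40), and PH02Gene27068 (-1.92), whose CK means were 56.5, 701, and 160 FPKM. When the near-identical libraries of LT15d, LT25d, and RT15d were added up within each group, 7 members changed from day 1 to day 15 and 1 from day 15 to day 25.

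In FPKM, the libraries of LT and RT did not overlap, with LT above, for 3 members on day 1, 13 on day 15, and 14 on day 25, against 22.3%, 28.1%, and 29.4% of all tested genes. LT was below for 3 on day 1, 1 on day 15, and 0 on day 25, against 53.5%, 52.9%, and 31.7%.

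Of the 20 members, 7 carried the Gene Ontology term for cold acclimation (53 genes of the series did) and 11 the term for response to abscisic acid. The 7 were the 5 tested dehydrins and the COR413 genes PH02Gene04238 and PH02Gene43446. The members lay on 15 scaffolds, and PH02Gene07646 and PH02Gene07648 were the only members adjacent to each other.

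Genes upstream of these proteins in the cold pathway were counted against the same shares of all tested genes, 20.8%, 19.3%, and 11.3% higher and 23.4%, 20.8%, and 13.2% lower on days 1, 15, and 25. The DREB family (12 genes, 11 tested) had 4 genes higher and 5 lower on day 1. Later 6 (day 15) and 3 (day 25) were higher and none was lower. On day 1 the 5 lower ones were all DREB1 genes, the CBF type, and the 4 higher ones were all DREB2 genes. The 7 DREB1 genes summed to between 47.1 and 99.4 FPKM in CK, between 6.63 and 14.3 in LT1d, and between 4.29 and 64.3 in RT1d. The RT1d range thus enclosed that of LT1d, and the RT1d libraries behind the lower DREB1 calls were very uneven in this sum. PH02Gene23182 (DREB1C) made up most of the LT1d sum, with a mean of 8.47 FPKM in LT1d and 5.27 in RT1d. The other DREB1 means were at most 0.651 FPKM in LT1d and between 1.12 and 5.31 in RT1d. The sum therefore does not show whether the libraries of the lower genes overlapped. On day 15 they summed to between 4.68 and 6.46 FPKM in LT15d and between 1.55 and 2.37 in RT15d. The largest LT against RT differences were of PH02Gene45634 (DREB2C-like) on days 1 and 15, with 9.55, 3.97, and 5.74 FPKM in LT1d against 0, 0.282, and 0.188 in RT1d (log2 fold change 5.77, SE 0.77), and of PH02Gene07208 (DREB1B) on day 25, at 0.290, 0.382, and 0.571 FPKM in LT25d and without counts in RT25d.

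PH02Gene07293, described as ICE1, the activator of CBF genes in Arabidopsis, was higher in the cold on all 3 days. It read 32.3, 29.1, and 32.6 FPKM in LT1d against 3.03, 3.70, and 4.26 in RT1d (log2 fold change 3.62, SE 0.42), and was higher by 3.64 on day 15 and 2.16 on day 25. The other gene described as ICE1, PH02Gene12072, was low and was called higher on day 15 only. Its mean was 1.40 FPKM in LT15d against 0.277 in RT15d, and 0.480 in LT25d against 1.05 in RT25d. Calmodulin-binding transcription activators (10 tested of 11), which act on CBF genes in Arabidopsis, had 2 higher on day 1, none on day 15, and 1 lower on day 25. Of 15 tested SnRK2-type kinases, which act in ABA signalling, 4, 4, and 1 were higher and 1, 2, and 2 lower on the 3 days, shares of higher genes that were near or below those of all genes.

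Of 6 tested ABA receptor genes, 2 were higher and 1 lower on day 1, 3 higher on day 15, and none was called on day 25. PH02Gene39925 (PYL9-like) had the largest difference, with 40.6, 44.5, and 42.5 FPKM in LT1d against 1.77, 1.94, and 3.37 in RT1d (log2 fold change 4.69, SE 0.28), and its CK mean was 32.5 FPKM. The single abscisic stress-ripening gene, PH02Gene34042, from a family of small hydrophilic proteins that respond to ABA, read 1047, 736, and 874 FPKM in LT1d against 40.4, 57.6, and 95.2 in RT1d (4.29, SE 0.35). It was higher in LT by 3.42 on day 15 and not called on day 25 (-0.93). CK, between 411 and 882 FPKM, overlapped LT1d and lay above both RT1d and RT15d.

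Other stress-related genes were counted as well. Of all tested genes, 20.8%, 19.3%, and 11.3% were higher and 23.4%, 20.8%, and 13.2% lower on the 3 days. Galactinol synthase, which opens the raffinose pathway, had 3, 4, and 4 of 5 tested genes higher on the 3 days and none lower, and the 9 genes summed to between 981 and 999 FPKM in LT15d against 181 to 193 in RT15d. PH02Gene28670 had the largest LT against RT difference on day 15, 5.01 (SE 0.31), with a mean of 135 FPKM in LT15d, 5.50 in RT15d, and 163 in CK. Hydrophobic LTI6/RCI2 proteins (2 tested of 4) had 1 higher on day 1, 1 on day 15, and none on day 25, with log2 fold changes of 1.06 for PH02Gene09301 and 1.24 for PH02Gene11144. The 4 early responsive to dehydration genes had 2, 2, and 1 higher and 1, 2, and 0 lower.

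Since LEA genes are typical of seeds, seed and oil body genes were read beside them. Of 28 such genes, 7 were tested, with 1, 2, and 3 higher and 2, 1, and 1 lower on the 3 days. The shares of all tested genes were 20.8%, 19.3%, and 11.3% higher and 23.4%, 20.8%, and 13.2% lower. The 28 genes summed to between 198 and 199.9 FPKM in LT15d and between 114 and 130 in RT15d. On the other days the sum was lower in the cold. It was 73.5 to 93.0 FPKM in LT1d against 115 to 179 in RT1d, and 183 to 196 in LT25d against 226 to 304 in RT25d. The glutelin gene PH02Gene30293 had means of 35.5 FPKM in LT25d and 207 in RT25d. In all LT15d libraries, 12 of the 28 were at 0. The caleosin gene PH02Gene08095, an oil body protein, was higher in LT15d, with 70.2, 68.4, and 77.6 FPKM against 2.50, 1.98, and 2.83 in RT15d (5.28, SE 0.42).

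Genes of senescence and of cell division were read in the same way. The senescence list (10 tested of 13), which includes SAG21 genes that are themselves of the LEA type in Arabidopsis, had 6 genes higher and 2 lower on day 1, 4 higher on day 15, and 3 higher and 1 lower on day 25. The shares of all tested genes called higher were 20.8%, 19.3%, and 11.3% on the 3 days, and called lower 23.4%, 20.8%, and 13.2%. The senescence genes summed to 1269 to 1541 FPKM in LT1d, 211 to 389 in RT1d, 894 to 950 in LT15d, 388 to 419 in RT15d, and 529 to 961 in CK. On day 25, RT25d (324 to 687) enclosed LT25d (446 to 471). Much of the sum came from the SAG21 gene PH02Gene40131, with means of 658 FPKM in LT1d, 134 in RT1d, 731 in LT15d, and 300 in RT15d. In LT1d, PH02Gene19014 added a mean of 648 FPKM. Histone H4 and cyclin B genes (10 tested of 19) had 0 higher and 2, 4, and 4 lower, and secondary wall cellulose synthase genes (2 tested of 3) had none called on any day. The part of these tissues or states in the results of the members was not tested.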

How the data were processed

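RNA-seq libraries of Pn culms were analysed in 7 groups of 3, assigned from their labels. Per the paper's methods, HISAT2 (version 2.2.1) placed the reads on the P. edulis genome and StringTie (version 2.1.6) assembled them. The authors deposited FPKM values for 42460 genes, scaled by transcript length and mapped fragments with StringTie and ballgown. Estimated counts were deposited beside them, as unscaled whole numbers. No source used here states which tool made the counts, whether strand was used, or how reads with several matches were treated, and the submitters' processing notes also name Salmon. The labels describe amplified SMARTer cDNA, so PCR copies are not independent molecules.

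Counts were fitted with edgeR (version 4.0.16, glmQLFit and glmQLFTest, TMM scaling, R 4.3.3) in all 21 libraries with a mean per group, and p-values were adjusted over 29913 genes with the Benjamini-Hochberg method. The test was checked on simulated data. Folds against a group without counts used a floor of 12 counts per library, taken as 3 read pairs at an assumed 4 counts per pair, and this bound covers counting error only. An exact permutation test of 3 against 3 libraries has a smallest p of 0.1. The p-values given are therefore those of edgeR, and they measure only the spread between these libraries.

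The members and gene lists were chosen with earlier results of these data known. Named members were, on each day, the 6 largest rises and 4 largest falls without overlap, members called on all 3 days, the 3 largest changes between days 1 and 25, the most abundant of each class, and the 2 most abundant called on no day. One gene per other list and day was named, by largest change. Further members were named to account for all of them. The class rule would have put WCOR410c with COR413, and it was moved to the dehydrins after its description was seen. Abbreviations such as PYL were matched with case. Alternatives were median-of-ratios and library-size scaling, DESeq2 (version 1.42.0), limma (version 3.58.1) on log2(FPKM + 1) and log2(FPKM + 0.1), a mean FPKM of at least 5 as the filter or none, the replicate block, the compared libraries alone, near-identical libraries summed, and leaving out each library. Sequences were not used here.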

Additional observations from a re-analysis of the deposited data

Results flagged for a closer look

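The effect of 4 °C against 25 °C differed between days for most tested members, in a test of the difference itself with edgeR (adjusted p of at most 0.05 and at least 2-fold). From day 1 to day 15 the log2 effect grew most in PH02Gene07646 (7.04), PH02Gene40576 (6.30), PH02Gene11487 (6.25), and PH02Gene07648 (6.22). It grew in PH02Gene42079 (4.67), PH02Gene40657 (3.49), PH02Gene01531 (3.48), PH02Gene04238 (3.36), PH02Gene13412 (3.30), and PH02Gene32270 (2.02), and fell in PH02Gene23248 (-4.33).

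From day 15 to day 25 the effect grew in PH02Gene15854 (7.94), PH02Gene07648 (4.51), PH02Gene40657 (3.80), PH02Gene42079 (3.44), PH02Gene07646 (2.89), and PH02Gene04238 (2.12). The values of PH02Gene28937 (8.87) and PH02Gene32270 (5.95) have no counts in RT25d behind them and depend on the prior count. The effect fell in PH02Gene13412 (-2.40), PH02Gene01531 (-2.04), and PH02Gene27068 (-1.92). With the near-identical libraries of LT15d, LT25d, and RT15d added up within each group, 1 member was called in place of these 11.

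From day 1 to day 25 the effect grew in PH02Gene07648 (10.73), PH02Gene07646 (9.92), PH02Gene15854 (8.65), PH02Gene42079 (8.11), PH02Gene40576 (7.41), PH02Gene40657 (7.29), PH02Gene11487 (6.32), PH02Gene04238 (5.48), and PH02Gene01531 (1.44). It was 9.62 in PH02Gene28937, 8.05 in PH02Gene10877, and 7.97 in PH02Gene32270, where the same limit on RT25d holds. It fell in PH02Gene23248 (-3.68). For PH02Gene07648 and PH02Gene04238 the effect turned from lower in the cold on day 1 to higher on day 25, and both calls passed the test.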

How the results depend on the processing

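The 12 members called higher on day 15 and the 14 on day 25 numbered 8 to 12 and 11 to 14 over 10 alternatives and 11 to 12 and 14 without single libraries, and none was called lower on these days. The lowest day 15 count was with the near-identical libraries of LT15d, LT25d, and RT15d added up within each group (hereafter libraries summed), where the spread comes from the other groups. On day 1, 3 to 5 were higher and 2 to 3 lower. Other counts moved by over 1.5 times, and the cause was not tested: against CK, RT1d had 4 with the compared libraries alone and 4 with libraries summed (7 in the main test), RT15d 5 with libraries summed (9), LT25d 13 with limma on log2(FPKM + 0.1) (8), RT25d 7 with the compared libraries alone (12), and LT1d 3 to 5 without single libraries (3), the 5 without CK replicate 1. The LT effect changed in 7 members from day 1 to day 15 with libraries summed (11) and in 1 from day 15 to day 25 (11). Uncalled values near 0 turned sign. PH02Gene07646 on day 1 (0.06) was -0.39 with library-size scaling, -0.15 with DESeq2, -0.053 and -0.37 with limma, -0.048 with a mean FPKM of at least 5, -0.10 with the compared libraries alone, and -4.98 to 0.58 without single libraries. PH02Gene10877 on day 1 (0.25) was -0.21 with library-size scaling, -0.040 and -0.34 with limma, and -5.53 to 2.21 without single libraries, of which -0.33 and -0.06 were without RT1d replicates 1 and 3, and PH02Gene07646 was -0.52 without RT1d replicate 1. PH02Gene40657 on day 1 was -0.033 and -0.067 with limma, PH02Gene15854 on day 15 was -0.0047 with library-size scaling and -0.051 and -0.051 with limma, and PH02Gene41716 on day 25 was -0.20 to 0.47 without single libraries, with -0.02 without LT25d replicate 3. With libraries summed, the day 15 calls of PH02Gene10877, PH02Gene28937, PH02Gene32270, and PH02Gene40657 and the day 25 calls of PH02Gene04238, PH02Gene10877, and PH02Gene27068 were lost. A mean FPKM of at least 5 gave no value for PH02Gene10877, PH02Gene28937, PH02Gene32270, and PH02Gene41716. Over single members, 717 values kept direction and call, 14 lost the call, 4 gained it, and 21 turned sign. Same-numbered libraries did not deviate together (correlations -0.0803 to 0.0136), and with the replicate block 4 members were higher and 2 lower on day 1, 12 higher on day 15, and 14 on day 25. Depth limits the members without counts in RT25d, whose folds are lower bounds.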
